A study of Homo sapiens with 3 samples.

Results

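The nuclear-encoded respiratory chain genes were taken by symbol from 3 expression tables: every gene whose symbol begins with NDUFA, NDUFB, NDUFC, NDUFS or NDUFV (the NDUFAF assembly factors excepted), UQCR, COX4 to COX8 or ATP5, together with SDHA, SDHB, SDHC, SDHD, CYC1 and CYCS. This gave 92 genes of the 18856 listed in at least 1 library. Of these, 86 encode subunits, their isoforms, copies or readthrough transcripts: 38 genes belong to complex I, 4 to complex II, 10 to complex III, 16 to complex IV and 17 to complex V, and CYCS is the mobile carrier cytochrome c. The other 6 carry a matching symbol without encoding a subunit. They are the assembly-related genes ATP5S and ATP5SL, the pseudogenes ATP5EP2 and UQCRBP1, and the noncoding neighbours NDUFA6-AS1 and NDUFB2-AS1.

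Complex I (NADH dehydrogenase) and complex II (succinate dehydrogenase) pass electrons to ubiquinone, complex III passes them through cytochrome c to complex IV (cytochrome c oxidase), which reduces oxygen, and complex V (ATP synthase) makes ATP from the proton gradient that complexes I, III and IV build. Except in complex II, the nuclear subunits described here are assembled with a few subunits that the mitochondrial genome encodes. Several complex IV subunits have a common isoform and a second isoform known from muscle, testis or hypoxic tissue, and in many cells these genes are driven by shared factors such as NRF1, GABP (an ETS factor) and YY1.

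The data were 3 libraries, 1 per condition, each from 10 pg of polyA+ mRNA. HBE, a human bronchial epithelial cell line, and A549, a line from a human lung adenocarcinoma, were each sequenced by LIEA, a low-input method that ligates adapters to fragmented mRNA and reads it on an Ion Torrent instrument. HBE mRNA was also sequenced by Smart-seq2, which amplifies full-length cDNA before an Illumina run. The labels name no treatment and no altered allele. The 10 pg were dilutions of bulk mRNA, so the libraries sample that mRNA and not single cells. With no replicate library there was no test between conditions: differences below are between libraries, the intervals printed are 95% exact intervals for the ratio of 2 read counts, and they cover counting error only. Levels are given as log2 rpkM (reads per kilobase of transcript per 1000000 mapped reads, the authors' scale), and a gene with at least 10 reads in a library is called quantified.

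The libraries held 4605855 mapped reads (HBE, LIEA), 4154060 (A549, LIEA) and 9845150 (HBE, Smart-seq2), so that 3 reads, the most that a count of 0 allows, correspond to 0.651, 0.722 and 0.305 reads per 1000000. The epithelial keratins KRT8 and KRT18 had at least 5012 reads in every library. KRT5, a keratin of basal bronchial cells, had 5854 and 9219 reads in the HBE libraries and 18 in A549. The alveolar marker SFTPC and the blood marker HBB had 0 reads in all 3 libraries, and PTPRC, a leukocyte marker, had at most 3. Other markers were less clear. In HBE LIEA, A549 LIEA and HBE Smart-seq2, epithelial EPCAM had 226, 26 and 2181 reads and basal KRT14 11, 0 and 103. Alveolar SFTPB had 21, 20 and 49 reads. Of markers of other cells, COL1A1 had 175, 93 and 85 reads, PECAM1 20, 9 and 91, and COL3A1 at most 1. Epithelial KRT19 and CDH1 had at least 388 in every library, and basal TP63 had 706, 90 and 691.

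The promoters of 4 subunit genes carried the palindromic recognition sequence of NRF1, GCGCATGCGC, within the RefSeq promoter window that runs from 250 bases upstream to 50 bases downstream of the gene start (GRCh38.p14). They are shown because they share this word, and their differences between the cell lines went both ways. Whether the word bears on the differences was not tested. Each line gives 100 bases, 5′ to 3′ on the strand of the gene, with the word in capitals.
ATP5C1: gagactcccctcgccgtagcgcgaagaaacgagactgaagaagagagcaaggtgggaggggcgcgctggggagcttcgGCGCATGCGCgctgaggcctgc
NDUFA8: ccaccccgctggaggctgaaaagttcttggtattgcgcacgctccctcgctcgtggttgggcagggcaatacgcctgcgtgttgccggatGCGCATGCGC
NDUFB4: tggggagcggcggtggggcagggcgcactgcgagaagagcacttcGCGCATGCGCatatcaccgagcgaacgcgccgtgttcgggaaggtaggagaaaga
SDHD: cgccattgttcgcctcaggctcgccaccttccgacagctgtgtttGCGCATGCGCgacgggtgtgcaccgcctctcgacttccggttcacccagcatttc
The stretches lie at chr10:7788077-7788176 (plus strand, ATP5C1, now ATP5F1C), chr9:122159774-122159873 (minus strand, NDUFA8), chr3:120596132-120596231 (plus strand, NDUFB4) and chr11:112086718-112086817 (plus strand, SDHD). A promoter window was found for 67 of the 86 subunit genes. The palindrome was present in 4 of them (5.97%), against 414 of 27305 genes with a window (1.52%). Its 8-base core GCATGCGC, which the palindrome contains, was present in 15 (22.4%, against 3.68% of all genes), the ETS word CCGGAAG in 20 (29.9% against 12.2%) and the YY1 word AAGATGGC in 12 (17.9% against 3.52%), each searched on both strands. These matches describe letters in a window and are not evidence of binding.

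Most respiratory chain genes were well above the detection limit. Of the 92, 88 were listed in HBE LIEA, 90 in A549 LIEA and 90 in HBE Smart-seq2, and 87, 86 and 86 were quantified. Among the quantified ones the median level was 5.85 log2 rpkM in HBE LIEA, 6.10 in A549 LIEA and 6.63 in HBE Smart-seq2, against 3.28, 3.11 and 2.85 over all quantified genes. Together they took 0.9804% of the mapped reads in HBE LIEA (Wilson interval 0.9715% to 0.9895%), 0.8468% in A549 LIEA (0.838% to 0.8557%) and 1.358% in HBE Smart-seq2 (1.351% to 1.366%). The share was lowest in A549 and highest in the Smart-seq2 library.

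The genes at or near 0 were the alternative isoforms and the pseudogenes. COX6A2 and COX7A1, the heart and muscle isoforms of complex IV, had 0, 0 and 1 reads and 0, 2 and 0 reads in HBE LIEA, A549 LIEA and HBE Smart-seq2. NDUFA4L2, the hypoxia-induced paralog of NDUFA4, had 0, 1 and 1 reads. ATP5EP2 had 0, 1 and 1 reads and UQCRBP1 2, 0 and 0. No library listed COX4I2, the isoform of COX4 known from lung, or the testis isoforms COX7B2 and COX8C. The noncoding neighbours were each below 10 reads in a single library, NDUFB2-AS1 with 7 reads in A549 and NDUFA6-AS1 with 9 in Smart-seq2. Whether the counting used strand is not given in the sources used here. NDUFB2-AS1 lies within NDUFB2 on the opposite strand, so its reads may not be separable from those of NDUFB2, whereas NDUFA6-AS1 (now NDUFA6-DT) does not overlap NDUFA6 on GRCh37.

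By complex, complex IV had the highest median level of complexes I to V in both LIEA libraries, 6.90 log2 rpkM in HBE (13 quantified genes) and 7.65 in A549. In the Smart-seq2 library complex V was highest, with a median of 7.56 over 17 genes, and complex IV stood at 7.09. Complex I, the largest, had medians of 5.67, 5.74 and 6.17 log2 rpkM in HBE LIEA, A549 LIEA and HBE Smart-seq2. Subunits of a single complex, which are assembled in fixed proportion, still differed widely in mRNA level per length. In HBE LIEA complex I ran from NDUFA5 at 1.71 log2 rpkM to NDUFB9 at 7.88, a 72.0-fold range. Complex V ran from ATP5L2, a copy of ATP5L, at 2.37 to ATP5B, the catalytic beta subunit of F1, at 9.46. The lowest quantified complex III gene was UQCRB at 3.14 and the highest UQCRC1 at 8.09. NDUFA5 (5790 nt) and UQCRB (5109 nt) had the longest transcripts of their complexes, and rpkM divides by length. The part of transcript length in these ranges was not tested.

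**Figure D1:**
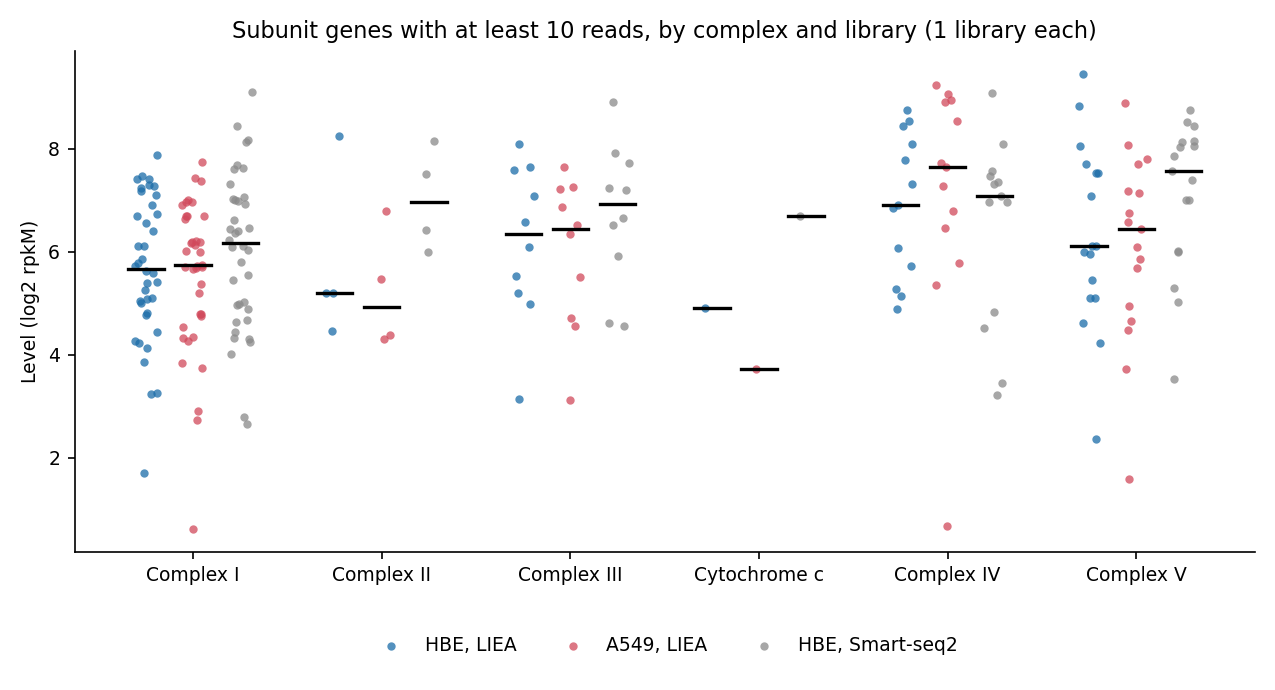
Level of each subunit gene with at least 10 reads (vertical axis, log2 rpkM) by complex and library; each point is a gene and the black bar is the median over genes. Complex IV has its highest median in A549 LIEA (7.65), and complexes I, II, III and V have theirs in HBE Smart-seq2.

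The comparison of A549 with HBE by LIEA asks which subunit genes differ between a lung tumour line and a bronchial epithelial line measured in the same way. The respiratory chain genes as a group differed little: over the 86 quantified in both libraries the median difference (A549 minus HBE) was -0.08 on the log2 scale, against -0.16 over all 11265 such genes. The general shift of -0.16 applies to every A549 difference below, and medians relative to it are given where the sign depends on it. Of the 86, 7 genes (8.14%) were at least 2-fold higher in A549, where 13.4% of all genes were. At least 2-fold lower were 8 genes (9.3%), where 17.2% of all genes were. Both shares were below the background. Of the 86, 38 (44.2%) lay above 0, where 43.0% of all genes did. After centring on the all-gene median the split was 9 higher and 6 lower, for which no centred share over all genes is given here. Since mRNA pooled from many cells was sequenced, fewer cells expressing a gene and less RNA per cell cannot be told apart.

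Most complex IV genes were higher in A549. Of its 13 quantified genes, 11 (84.6%) were higher in A549, where 43.0% of all genes were. The median difference was 0.48 on the log2 scale. The same 11 of 13 was counted after centring and after rescaling to a fixed sum of rpkM. It was also counted with the reads of MTRNR2L genes, nuclear copies of mitochondrial rRNA sequence, removed from the totals. COX6B1, the common isoform of the subunit that bridges the complex IV dimer (chr19:36139225-36149684 on GRCh37, plus strand), stood at 7.79 log2 rpkM in HBE LIEA, 9.23 in A549 LIEA and 3.22 in HBE Smart-seq2, from 301, 734 and 27 reads. It was the highest of all the respiratory chain genes in A549, and its A549 minus HBE difference was 1.43 (interval 1.24 to 1.63). COX7A2L, a complex IV-related protein that takes part in supercomplex assembly, stood at 5.72, 6.80 and 7.09 log2 rpkM, a difference of 1.08 (0.93 to 1.23) between the cell lines. The other 9 of the 11 were COX4I1, COX5A, COX5B, COX6A1, COX6C, COX7A2, COX7B, COX7C and NDUFA4, at 0.38 to 0.81.

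The 2 complex IV genes that were lower in A549 were COX8A and COX6B2. COX8A, the common isoform of its subunit, stood at 8.75 log2 rpkM in HBE LIEA and 8.54 in A549 LIEA (difference -0.22, interval -0.35 to -0.08). COX6B2, the testis isoform of COX6B (chr19:55860674-55866087 on GRCh37, minus strand), stood at 5.15 log2 rpkM in HBE LIEA, 0.67 in A549 LIEA and 3.46 in HBE Smart-seq2, from 272, 11 and 180 reads. Both HBE values were above A549, but they differed by 1.69 (LIEA minus Smart-seq2). The Smart-seq2 value is therefore not a second reading of the difference between cell lines. By LIEA that difference was -4.48 (-5.5 to -3.62), a 22.3-fold lower level in A549, and the largest among the 86 genes. COX6B2 thus made up 13.8% of the summed COX6B rpkM in HBE LIEA and 0.265% in A549 LIEA.

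Transcript length moved with the complex IV result. The median transcript length behind the rpkM values was 663 nt over complex IV and 985 nt over the other 70 subunit genes. All 10 respiratory chain genes under 500 nt were higher in A549 (median difference 0.41), although 2 of the 10 changed sign after rescaling to a fixed sum. The 7 of them outside complex IV had a median of 0.35. The 80 genes under 500 nt in the whole table also had a positive median, 0.26, against -0.18 for the 10565 genes of 1000 nt or more. Among the complex IV genes of 500 nt or more, 8 of 10 were higher in A549, with a median of 0.45. The part of transcript length in the difference was not tested beyond these counts.

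Complex V showed no common direction, and its catalytic head differed from complex IV. Of 17 genes, 11 were lower in A549 (10 after centring, 12 after rescaling), with a median of -0.26. The share above 0 was 35.3%, against 43.0% of all genes. Of the 5 F1 genes, 4 were lower under every scaling: ATP5D, the delta subunit of the central stalk (chr19:1241745-1244824 on GRCh37), stood at 7.71 log2 rpkM in HBE LIEA, 5.86 in A549 LIEA and 8.76 in HBE Smart-seq2, from 962, 241 and 4254 reads. Its difference of -1.85 (-2.06 to -1.64) was the lowest of complex V. ATP5A1 and ATP5B, the alpha and beta subunits, differed by -0.92 (-1.01 to -0.82) and -0.58 (-0.64 to -0.52), and ATP5C1, the gamma subunit, by -0.33 (-0.50 to -0.17). ATP5E, the epsilon subunit, was at 0.19 (-0.02 to 0.40). Of the 12 other complex V genes, 7 were below 0 (6 below the all-gene shift), among them ATP5F1, subunit b of the peripheral stalk, at -0.98 (-1.23 to -0.73) and ATP5J2 at -0.75 (-0.89 to -0.60). ATP5H, subunit d of the peripheral stalk, stood at 5.99 log2 rpkM in HBE LIEA, 7.18 in A549 LIEA and 8.04 in HBE Smart-seq2, and was higher in A549 by 1.19 (0.93 to 1.46).

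The 3 genes ATP5G1, ATP5G2 and ATP5G3 encode the same mature c subunit of the rotor ring, so their sum and their shares can be read separately. The summed level was 288 rpkM in HBE LIEA, 385 in A549 LIEA and 704 in HBE Smart-seq2. ATP5G2 stood at 34.3, 94.7 and 189 rpkM, and its A549 minus HBE difference was 1.46 on the log2 scale (1.11 to 1.83), while ATP5G1 differed by 0.27 and ATP5G3 by -0.03. The ATP5G2 share of the sum was 11.9% in HBE LIEA and 24.6% in A549 LIEA, and ATP5G1 held the largest share in both, 64.0% and 57.8%.

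**Figure D2:**
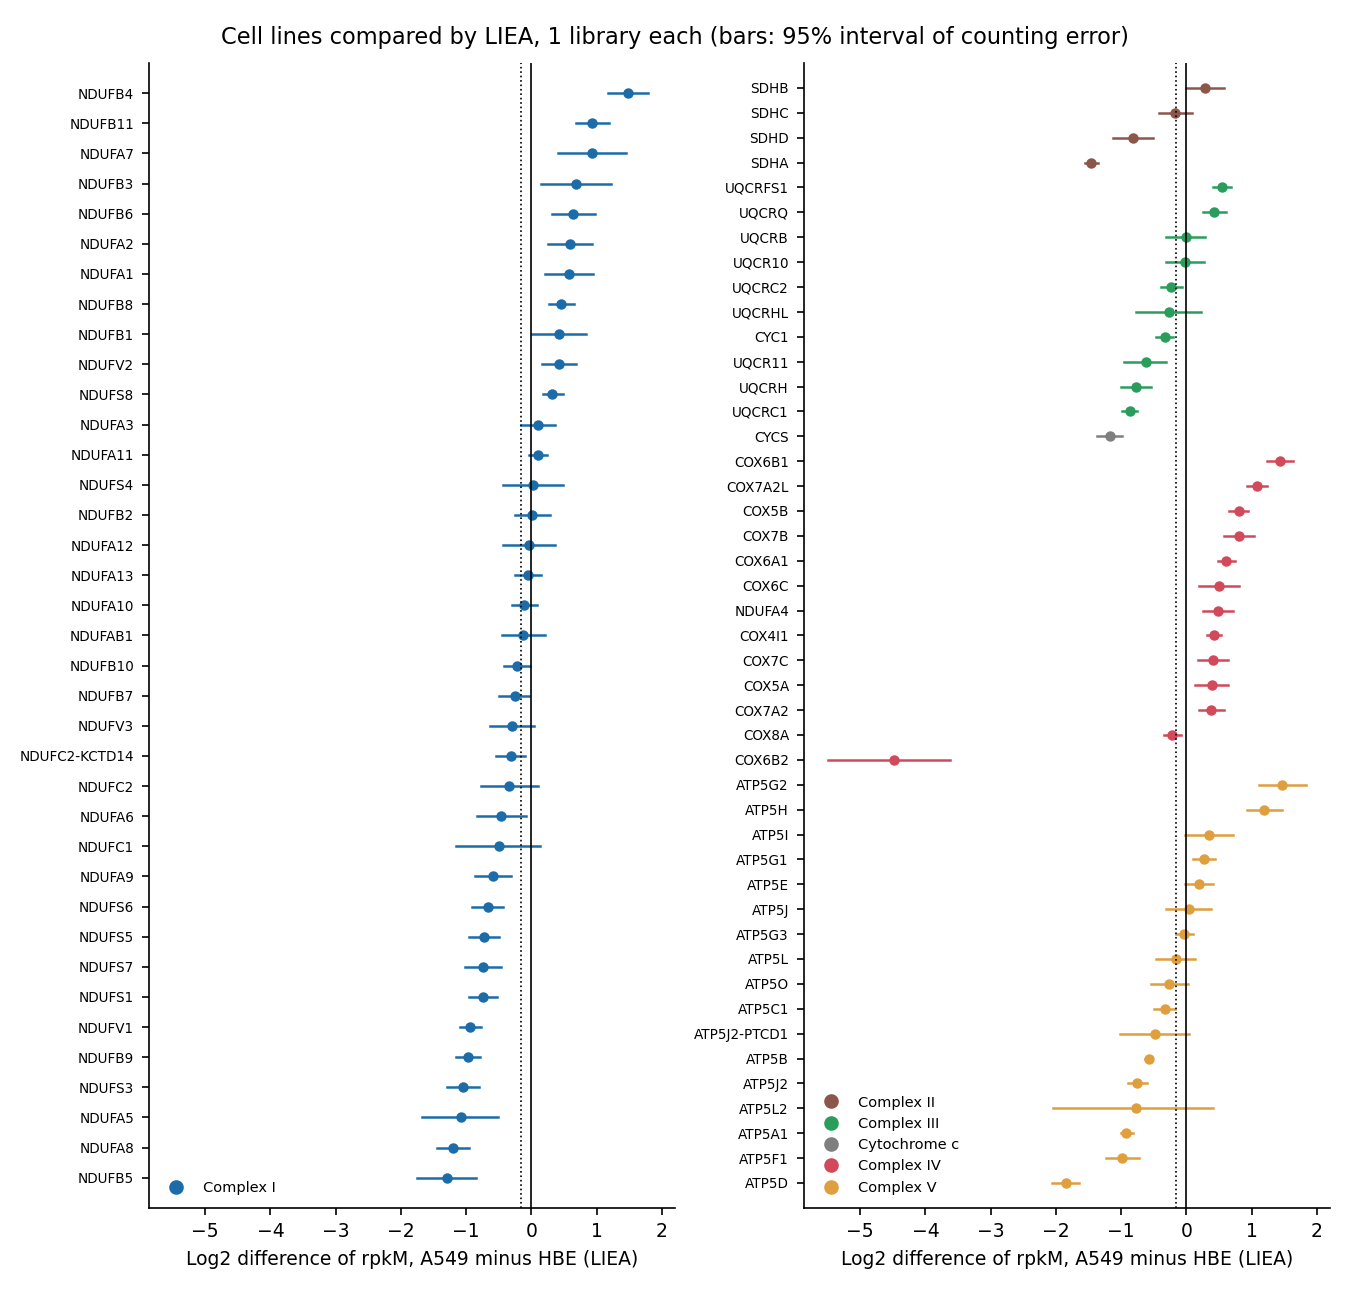
Difference of log2 rpkM between A549 and HBE (both LIEA) for the subunit genes described here that were quantified in both, sorted within complexes; points are differences, bars the 95% interval of counting error, the solid line 0 and the dotted line the all-gene median of -0.16. Complex IV (red) lies right of 0 except for COX8A and COX6B2, and ATP5D, SDHA and NDUFB5 are the lowest of their complexes.

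In complex II, SDHA and SDHD were lower in A549, and so was cytochrome c. SDHA, the flavoprotein of succinate dehydrogenase (chr5:218418-257197 on GRCh37), stood at 8.25 log2 rpkM in HBE LIEA, 6.79 in A549 LIEA and 8.15 in HBE Smart-seq2, from 3351, 1100 and 6702 reads. The 2 HBE libraries were close and A549 was lower, by -1.46 (-1.56 to -1.36). Reads could be shared with the pseudogenes of SDHA: SDHAP1, SDHAP2 and SDHAP3 were listed with 92, 253 and 27 reads in HBE LIEA and 73, 143 and 38 in A549. How many reads were shared is not known, so the SDHA values are uncertain by an unknown amount. The iron-sulfur subunit SDHB and the membrane anchors SDHC and SDHD were at 0.29 (0.00 to 0.58), -0.17 (-0.42 to 0.08) and -0.82 (-1.13 to -0.51). CYCS, cytochrome c, stood at 4.90, 3.72 and 6.70 log2 rpkM and differed by -1.17 (-1.37 to -0.98) between the cell lines.

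Complex III held no gene 2-fold apart. Of its 10 genes, 8 were below 0, and 6 lay below the all-gene shift, and the range ran from UQCRC1, a core protein of the matrix arm, at -0.87 (-0.98 to -0.76) to UQCRFS1, the Rieske iron-sulfur protein, at 0.54 (0.41 to 0.68). UQCRH, the hinge protein, and UQCRHL, its intronless copy, are near-identical, and the split of reads between them is uncertain. Their summed level was 231 rpkM in HBE LIEA, 143 in A549 LIEA and 295 in HBE Smart-seq2.

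In complex I the differences went both ways, 16 of 38 above 0 and 22 below (20 and 18 after centring). The share above 0 was 42.1%, against 43.0% of all genes. The core subunits, which carry the NADH site, the iron-sulfur clusters and the ubiquinone site, did not share a direction. NDUFV1, which binds NADH, NDUFS1, an iron-sulfur subunit of the same module, NDUFS3 of the ubiquinone module and NDUFS7, next to ubiquinone, differed by -0.94, -0.75, -1.05 and -0.74, while NDUFV2 and NDUFS8, both iron-sulfur subunits, differed by 0.42 and 0.32. None of these 6 intervals included 0. NDUFS3 stood at 6.74 log2 rpkM in HBE LIEA, 5.69 in A549 LIEA and 7.69 in HBE Smart-seq2, and was past 2-fold, which it no longer was after centring.

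Among the accessory subunits of complex I, 1 of 30 was at least 2-fold higher in A549 and 3 lower, and after centring, which brought NDUFA7 and NDUFB11 past 2-fold and NDUFA5 below it, 3 were higher and 2 lower. Before centring, both shares were under the all-gene shares of 13.4% and 17.2%. The centred counts have no all-gene share beside them here. NDUFB4, of the membrane arm, stood at 4.22 log2 rpkM in HBE LIEA, 5.70 in A549 LIEA and 4.44 in HBE Smart-seq2, a difference of 1.48 (1.18 to 1.78). NDUFB5, of the same arm, stood at 5.04, 3.75 and 6.41 log2 rpkM, a difference of -1.29 (-1.75 to -0.85). The 2 HBE values of NDUFB4 were close together and below A549. Both HBE values of NDUFB5 were above A549, but they differed by -1.38 (LIEA minus Smart-seq2). The Smart-seq2 value of NDUFB5 is therefore not a second reading of the difference between cell lines. NDUFA8, whose promoter sequence is shown above beside that of NDUFB4, stood at 6.91, 5.71 and 8.16 log2 rpkM and differed by -1.20 (-1.45 to -0.95). NDUFA5 was the lowest complex I gene in both LIEA libraries, with 87 reads in HBE and 37 in A549, a difference of -1.08 (-1.68 to -0.51). Of the 4 genes with the NRF1 palindrome, NDUFB4 was thus higher in A549 and NDUFA8, SDHD and ATP5C1 were lower. Their median difference was -0.57, against 0.02 over the 62 quantified subunit genes with a window and no palindrome. For the 8-base core the medians with and without the word were -0.33 and 0.01, with 7 genes above 0 and 8 below. They were -0.01 and 0.0 for the ETS word (10 above, 10 below) and -0.12 and 0.0 for the YY1 word (6 above, 6 below). NRF1 itself had 147 reads in HBE LIEA and 111 in A549 (difference -0.26).

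Of the genes that match by symbol alone, ATP5SL, a protein linked to complex I assembly, stood at 4.58 log2 rpkM in HBE LIEA, 6.11 in A549 LIEA and 5.43 in HBE Smart-seq2. Its difference of 1.53 (1.29 to 1.78) was the highest of the 86. NDUFA6-AS1 was at 17 reads in HBE LIEA and 31 in A549 (1.02, 0.12 to 1.96).

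Assembly factors, regulators of mitochondrial biogenesis and citric acid cycle genes were counted in the same way. Of 37 quantified assembly factors, 2 were at least 2-fold higher (5.41%) and 7 lower (18.9%) in A549, with a median of -0.09, against 13.4% and 17.2% of all genes. The largest differences were TMEM126B (-1.46), FOXRED1 (-1.37), NDUFAF6 (-1.34, from 28 and 10 reads) and NDUFAF1 (-1.32), all assembly factors of complex I. Other complex I factors were higher in A549, such as NDUFAF5 (0.93), TIMMDC1 (0.37), ECSIT (0.35) and NDUFAF3 (0.15). The 2 that were 2-fold higher were COX14 (1.27) and ATPAF2 (1.11). Over the list, 16 lay above 0 and 21 below. Of 13 quantified regulators of mitochondrial biogenesis, 0 were 2-fold higher and 3 lower (23.1%). These were PPARGC1B, ESRRA and TFAM. The coactivator PPARGC1B was at -2.24 (-2.97 to -1.57) and the nuclear receptor ESRRA at -1.79 (-1.99 to -1.60). TFAM, which packages mitochondrial DNA and takes part in its transcription, was at -1.19 (-1.53 to -0.86). PPARGC1A, a coactivator of the same family, had 89 reads in HBE LIEA, 4 in A549 and 45 in HBE Smart-seq2, and so was not quantified in A549. GABPB2, a subunit of GABP, went the other way. It had 7, 25 and 7 reads in these libraries and was quantified in A549 alone. Of 13 citric acid cycle genes, IDH3B, a subunit of isocitrate dehydrogenase, was higher (1.81) and DLD, the shared dihydrolipoamide dehydrogenase, lower (-1.29), with a list median of -0.15.

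LIEA and Smart-seq2 were compared on the same mRNA of HBE, which asks how the library method alone sets the level of a gene. Sequencer and mapping tolerance changed with it and cannot be told apart from it. The HBE LIEA library is the same as in the comparison of cell lines, so the 2 sets of differences share its counting error. The respiratory chain genes were mostly lower in LIEA: the median over 86 genes (LIEA minus Smart-seq2) was -0.72 on the log2 scale, against 0.10 over 11698 genes. At least 2-fold higher in LIEA were 15 of 86 (17.4%), where 27.7% of all genes were. At least 2-fold lower were 35 (40.7%), where 19.4% of all genes were. Above 0 lay 30 of 86 (34.9%), where 52.7% of all genes did. The SD over the 86 genes was 1.49, against 1.5 over all genes. In either direction 50 of the 86 (58.1%) were 2-fold apart, where 47.2% of all genes were.

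Lower LIEA values prevailed in complexes I, II, III and V. In complex IV they prevailed only among the genes of 500 nt or more. In complex V 9 of 17 genes were at least 2-fold lower in LIEA (median -1.05), in complex I 15 of 38 (median -0.44), in complex III 4 of 10 (median -0.64) and in complex II 3 of 4 (median -1.39). In complex IV 3 of 13 genes were at least 2-fold lower and 6 at least 2-fold higher, with a median of 0.35. Among its 10 genes of 500 nt or more the median was -0.5, and 6 were below 0. At least 2-fold apart were 3 higher and 3 lower in LIEA. The part of transcript length in this was not tested. The lowest were NDUFA5 (-2.62), NDUFAB1, the mitochondrial acyl carrier protein (-2.59), ATP5G2 (-2.46), NDUFA4 (-2.45) and ATP5J, coupling factor 6 (-2.39). NDUFAB1 stood at 5.85 log2 rpkM in HBE LIEA, from 177 reads, and at 8.44 in HBE Smart-seq2, from 2282. SDHD stood at 5.20 and 7.51 and differed by -2.32 (-2.51 to -2.13), whereas SDHA in the same complex differed by 0.10 (0.04 to 0.16).

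The genes with the largest differences in favour of LIEA had short transcripts. NDUFA3, an accessory subunit of complex I (354 nt, chr19:54606036-54612564 on GRCh37), stood at 7.28 log2 rpkM in HBE LIEA, 7.37 in A549 LIEA and 2.66 in HBE Smart-seq2, from 253, 244 and 22 reads. COX6B1 (295 nt), described above, had 301, 734 and 27 reads. Both LIEA libraries were thus high and the Smart-seq2 library low, with LIEA minus Smart-seq2 differences of 4.62 (3.99 to 5.32) for NDUFA3 and 4.57 (4.0 to 5.20) for COX6B1. ATP5J2, subunit f of ATP synthase (511 nt), stood at 8.82 and 6.0 log2 rpkM in the HBE libraries, a 7.09-fold difference. Its readthrough ATP5J2-PTCD1, which can share its reads, held 79 reads beside 1065 in LIEA and 296 beside 321 in Smart-seq2, and with the reads of both summed the difference was 3.96-fold. COX7C (407 nt), COX7B (456 nt) and NDUFS5 (571 nt) differed by 2.49, 2.34 and 1.96. Longer transcripts in this group were NDUFA11 (2633 nt) at 1.22, ATP5B (1843 nt) at 1.40 and COX6B2 (1663 nt) at 1.69. The others past 2-fold were NDUFB8, NDUFA12, NDUFB6 and NDUFS8 of complex I and COX5B and COX4I1 of complex IV, at 1.04 to 1.59.

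Across length classes the median difference of the respiratory chain genes was 0.87 under 500 nt (10 genes), -0.74 from 500 to under 1000 nt (36 genes) and -1.01 at 1000 nt or more (40 genes). Over all genes the same medians were 0.06, -0.42 and 0.14, so the long respiratory chain genes lay below long genes in general. By GC content of the transcript, the medians were -1.48 under 40% (11 genes), -0.97 at 40 to 50%, -0.27 at 50 to 60% and -0.30 at 60% or more, against -0.66, -0.13, 0.51 and 0.97 over all genes. In each GC class the respiratory chain genes were below all genes. As a description over genes, which share these 2 libraries, the rank correlation of the difference with GC was 0.34 over the 86 genes and 0.38 over all genes, and with the logarithm of length -0.32 and 0.28.

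**Figure D3:**
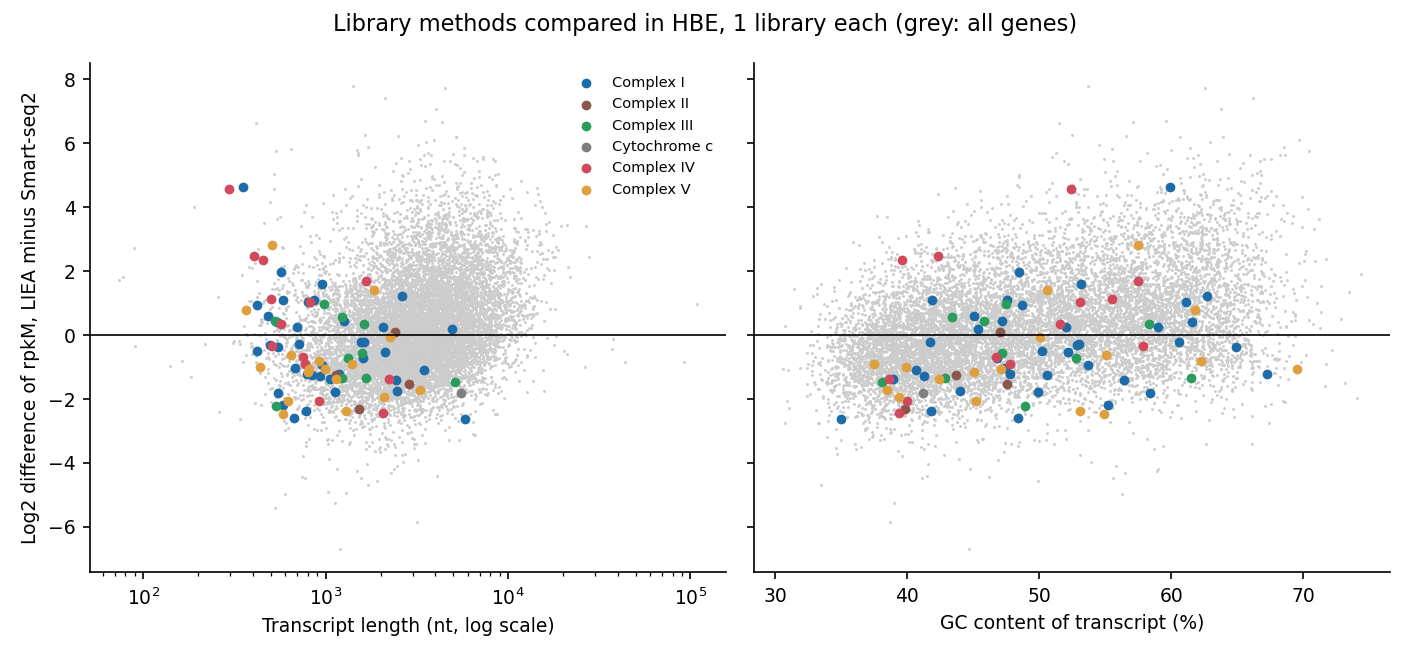
Difference of log2 rpkM between LIEA and Smart-seq2 in HBE against transcript length (left, log scale) and GC content (right); coloured points are subunit genes by complex, grey points all genes quantified in both libraries. The highest subunit genes, NDUFA3 and COX6B1, are also the shortest, and most of the longer ones lie below 0.

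Shares among paralogs differed between the methods. In HBE, COX6B1 made up 86.2% of the summed COX6B rpkM by LIEA and 45.8% by Smart-seq2, where it rested on 27 reads, and the summed level was 257 rpkM by LIEA and 20.3 by Smart-seq2. UQCRH made up 86.2% of the sum with UQCRHL by LIEA and 49.3% by Smart-seq2. ATP5G1 made up 64.0% of the c subunit sum by LIEA and 40.4% by Smart-seq2. COX6B1 and COX6B2 were close together in Smart-seq2, at 9.3 and 11.0 rpkM, and so were UQCRH and UQCRHL, so the order of either pair there is not resolved. ATP5G1 was the highest of its 3 genes in all libraries.

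**Figure D4:**
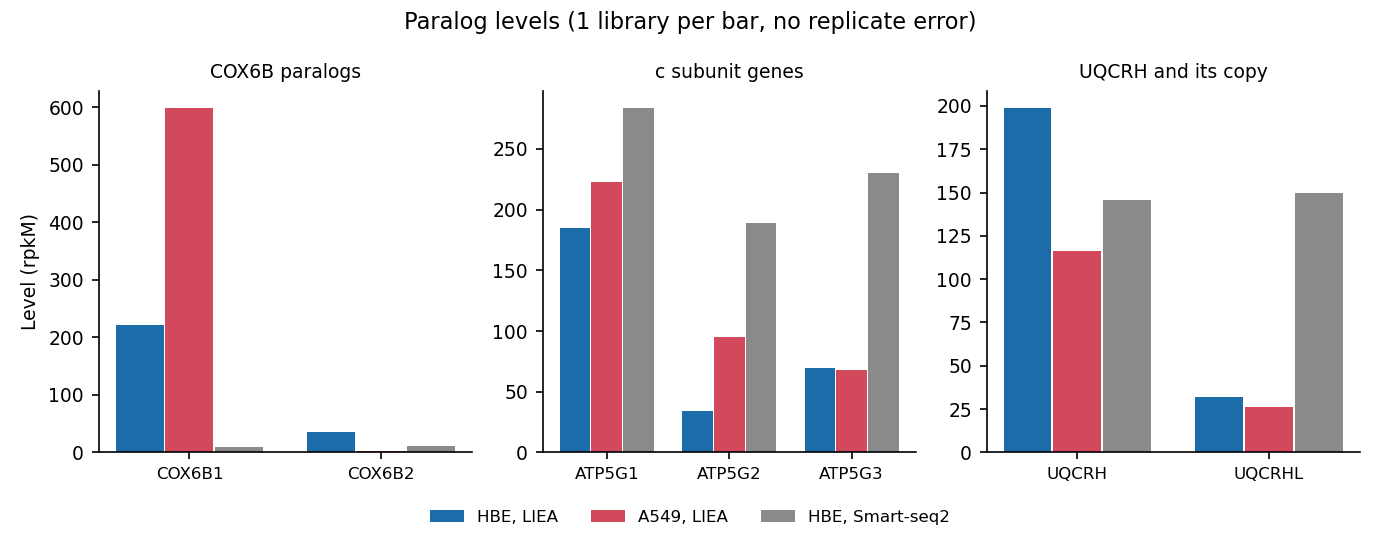
Level of paralogous genes (rpkM, linear axis from 0) in the 3 libraries, 1 library per bar and no replicate error. COX6B1 is high in both LIEA libraries (222 and 599 rpkM) and at 9.3 in Smart-seq2, ATP5G2 is higher in A549 than in HBE by LIEA, and UQCRH and UQCRHL are level only in Smart-seq2.

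The levels of the respiratory chain genes ranked alike in the 2 LIEA libraries and less so between the methods. Over 86 genes the rank correlation of log2 rpkM was 0.89 between HBE LIEA and A549 LIEA and 0.57 between HBE LIEA and HBE Smart-seq2, against 0.81 and 0.75 over all genes. These are descriptions over genes and carry no test. Of 36 assembly factors, 27 were lower in LIEA, with 3 at least 2-fold higher (8.33%), 11 at least 2-fold lower (30.6%) and a median of -0.64. Of 14 regulators, 2 were at least 2-fold higher (14.3%) and 6 lower (42.9%), with a median of -0.35. Of 13 citric acid cycle genes, 1 was at least 2-fold higher (7.69%) and 5 lower (38.5%), with a median of 0.23. Over all genes the shares were 27.7% higher and 19.4% lower, 52.7% lay above 0, and the median was 0.10. Among them were the assembly factors NDUFAF4 (-3.49) and BCS1L (2.57), the mitochondrial transcription factor TFB2M (-2.68), and DLST (2.86), a subunit of oxoglutarate dehydrogenase.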

How the data were processed

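The authors mapped LIEA (Ion Torrent) and Smart-seq2 (Illumina) reads with FANSe2 to human RefSeq transcripts, merged splice variants and computed rpkM; the deposited values are log2 rpkM per gene, without pseudocount, and hg19 is the labelled build. In each table, 4 rows with duplicated, date-like gene names were left out. Whole reads were recovered from the steps of the values as the mapped total and gene length that make reads whole (93.0% of 300 genes at the chosen totals). For 964 genes, 4 of them respiratory chain genes (COX7A1, COX7A2L, CYCS and UQCRH), a multiple was chosen by the nearest GENCODE 44 transcript length on GRCh37. Recovered reads summed to 97.42%, 97.9% and 97.63% of the totals. Of the 92 lengths, 53 were within 5% of an annotated transcript, and GC content was that of the nearest transcript. Where a length is wrong, its reads and interval shift with it and the difference between libraries does not.

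With 1 library per condition, a difference was called at 2-fold with at least 10 reads in both libraries. The same libraries serve as background over all genes. Intervals are exact for ratios of Poisson counts and Wilson for shares. Recovery and calling were tried on simulated data to which the true gene lengths were supplied, with changes larger than the 2-fold limit. That trial does not cover the choice of a multiple where annotated lengths differ from those used by the authors. Genes and lists (complexes, assembly factors, regulators, citric acid cycle) were chosen with earlier results of these data known. Genes named were those past 2-fold, under 10 reads, highest or lowest of a complex, the isoform groups, complex I core subunits and up to 4 examples per list. The other genes, such as COX8A, SDHB, ATP5A1 and NRF1, were named to complete a group after their values were seen. The values of 1 complex I gene are not reported here. Promoter windows are those of RefSeq (GRCh38.p14). Alternatives were another fold, scaling, pseudocount (1 rpkM), read filters (20 reads, 1 rpkM or none) and thinning to the smallest total. Python 3.11.15, numpy 2.4.6, pandas 2.3.3, scipy 1.17.1 and matplotlib 3.10.9 were used.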

Additional observations from a re-analysis of the deposited data

How the results depend on the processing

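The 9 results were recomputed under alternative settings, each applied to several results, which gave 61 values. Of these values, 58 kept their direction and, for counts, stayed within 1.5 times the reported count. Counting differences of 1.5-fold in place of 2-fold gave 15 respiratory chain genes higher and 23 lower in A549 than in HBE. Centring on the all-gene median turned the median difference between the cell lines from -0.08 to 0.08, so its sign depends on the scaling. Removing MTRNR2L reads from the totals, restricting the list to subunit genes and summing ATP5J2 with its readthrough were chosen after seeing the data. With 1 library on either side of each comparison there were no pairs to block on and no replicate to leave out. Spread between cultures is unknown, and genes under about 30 reads, such as COX6B1 and NDUFA3 in the Smart-seq2 library and COX6B2 in A549, rest on few counts.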
